A study of Mus musculus with 12 samples.

Results

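Genes that mark newborn neurons or steer their formation were followed through the hippocampi of mice that lack parts of Shank2 and of their wild-type littermates. Shank2 encodes a scaffold of the postsynaptic side of excitatory synapses. The 9 genes, Cd24a, Dcx, Sox4, Sox11, Neurod1, Igfbpl1, Dpysl3, Stmn1 and Tubb3, were matched by Ensembl identifier, and all 9 were found among the 24590 genes listed in any mouse. Cd24a was picked because it was higher in the knockouts of both lines, and the wild types of both lines entered that choice, so its differences are given as a description, with no test, in every comparison. The other 8 genes were tested in each.

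In the adult hippocampus the dentate gyrus keeps making granule neurons from neural stem cells. Stem cells give rise to dividing intermediate progenitors, these become neuroblasts that switch on Sox4, Sox11, Neurod1 and Dcx, and the young cells then build their cytoskeleton with doublecortin, stathmin, collapsin response mediator proteins and beta-III tubulin. Several of these genes are not restricted to young cells: mature neurons also carry Tubb3 and Stmn1 transcripts and granule neurons keep Neurod1, while Cd24a is also made by the ependymal cells that line the ventricles and by blood cells.

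Hippocampi of 12 mice were sequenced in 4 groups of 3: Shank2 knockouts without exons 6 and 7, wild-type littermates of that line, Shank2 knockouts without exon 7, and wild-type littermates of that second line. The strain of all 12 was labelled as mixed, C57BL/6J with C57BL/6N. The labels describe male littermates of 8 to 15 weeks for the behavioural work and give no separate sex or age for the RNA. No promoter or Cre is named in the labels. Each mouse has a number of its own in the labels, so the p-values below measure the spread between animals and their libraries.

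The values are FPKM, a level scaled by transcript length and library size, divided by a scaling factor of 0.919 to 1.07 per library. They carry no read totals, so depth is unknown. Libraries listed 19515 to 20334 genes. The lines stood far apart: mitochondrial transcripts made up 10.3 to 14.3% of summed FPKM in exon 7 mice and 6.22 to 7.39% in exon 6-7 mice. Within each line 1 knockout and 1 wild-type library, called set A here (KO776, WT778, KO969 and WT628), did not list the gene ENSMUSG00000095746, which lay at 218 to 435 FPKM as deposited in the other 8 libraries, set B. Shank2 was at 6.15 to 7.02 scaled FPKM in exon 6-7 knockouts and 13.8 to 14.9 in their wild types, and at 33.2 to 44.6 in exon 7 knockouts and 36.0 to 44.1 in their wild types, so the gene-level value checks the genotype labels of the exon 6-7 line only. All 10 hippocampal neuron markers looked up, among them Prox1, Wfs1 and Zbtb20, were listed in every library.

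Among the 9 genes, the transcription factors Sox4 and Sox11 and the cytoskeletal genes Dcx and Tubb3 are linked by earlier work in mice, in which both factors were described as activators of Dcx and Tubb3 in newborn neurons. The promoter sequences of Dcx and Tubb3 are shown for that reason. They are from RefSeq, build GRCm38.p6, each 300 bases long from 250 before to 50 after a transcript start, and 5 of the 9 genes had such a window (Dcx, Sox4, Sox11, Neurod1 and Tubb3). Capitals mark the letters ACAAAG or ACAATG, cores of sites bound by Sox proteins, on either strand. These motifs share their first letters and cannot match at the same position.
Dcx promoter, chrX:143933075-143933374, minus strand: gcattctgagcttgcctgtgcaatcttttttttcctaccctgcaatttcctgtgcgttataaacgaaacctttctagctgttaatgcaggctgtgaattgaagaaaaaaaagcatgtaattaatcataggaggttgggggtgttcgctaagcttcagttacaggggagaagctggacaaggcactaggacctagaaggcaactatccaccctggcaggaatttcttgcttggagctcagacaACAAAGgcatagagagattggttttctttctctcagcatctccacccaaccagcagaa
Tubb3 promoter, chr8:123411303-123411602, plus strand: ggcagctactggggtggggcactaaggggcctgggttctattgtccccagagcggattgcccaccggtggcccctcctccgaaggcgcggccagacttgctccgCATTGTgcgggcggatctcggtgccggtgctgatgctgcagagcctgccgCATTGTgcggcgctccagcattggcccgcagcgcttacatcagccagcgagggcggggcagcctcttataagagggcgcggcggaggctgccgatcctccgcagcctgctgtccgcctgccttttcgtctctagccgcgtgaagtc

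The Dcx window held 1 match to ACAAAG, just before the transcript start, and a second, overlapping Dcx window that begins further upstream held 0. The Tubb3 window held 2 matches to ACAATG, both on the opposite strand, where they read CATTGT in the printed sequence. The windows of Sox4, Sox11 and Neurod1 held 0. Of all 32851 promoter windows of this length, 18.7% held ACAAAG, 12.6% held ACAATG, 28.6% held either and 5.59% held at least 2 matches. The windows differed in base composition, with 44.7% G and C for Dcx and 67.3% for Tubb3, against a median of 52.7% over all windows. A match of these letters is a description and shows no binding in these samples.

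In FPKM, which are per length, the order of the 9 genes was similar in all groups. Tubb3 and Stmn1, both components or regulators of microtubules, lay highest, at a mean of 230 and 210 scaled FPKM in exon 6-7 knockouts and 271 and 241 in their wild types, and at 144 and 118 in exon 7 knockouts and 155 and 131 in their wild types. Their ranges overlapped in 3 of the groups and were apart in the exon 6-7 knockouts. Dpysl3, Cd24a and Neurod1 followed. Cd24a overlapped Dpysl3 in exon 6-7 wild types and lay above it in exon 6-7 knockouts, and it overlapped Neurod1 in exon 7 wild types and lay above it in exon 7 knockouts. Sox11 was lowest in each group, at 1.37 and 3.10 in the knockouts of the exon 6-7 and exon 7 lines and 1.18 and 2.45 in the wild types. Dcx and Igfbpl1 traded places. In exon 6-7 mice Dcx was next to last, below Igfbpl1 and Sox4, whose ranges overlapped. In exon 7 mice it lay above both, and its range overlapped that of Sox4 in the knockouts only.

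**Figure D1:**
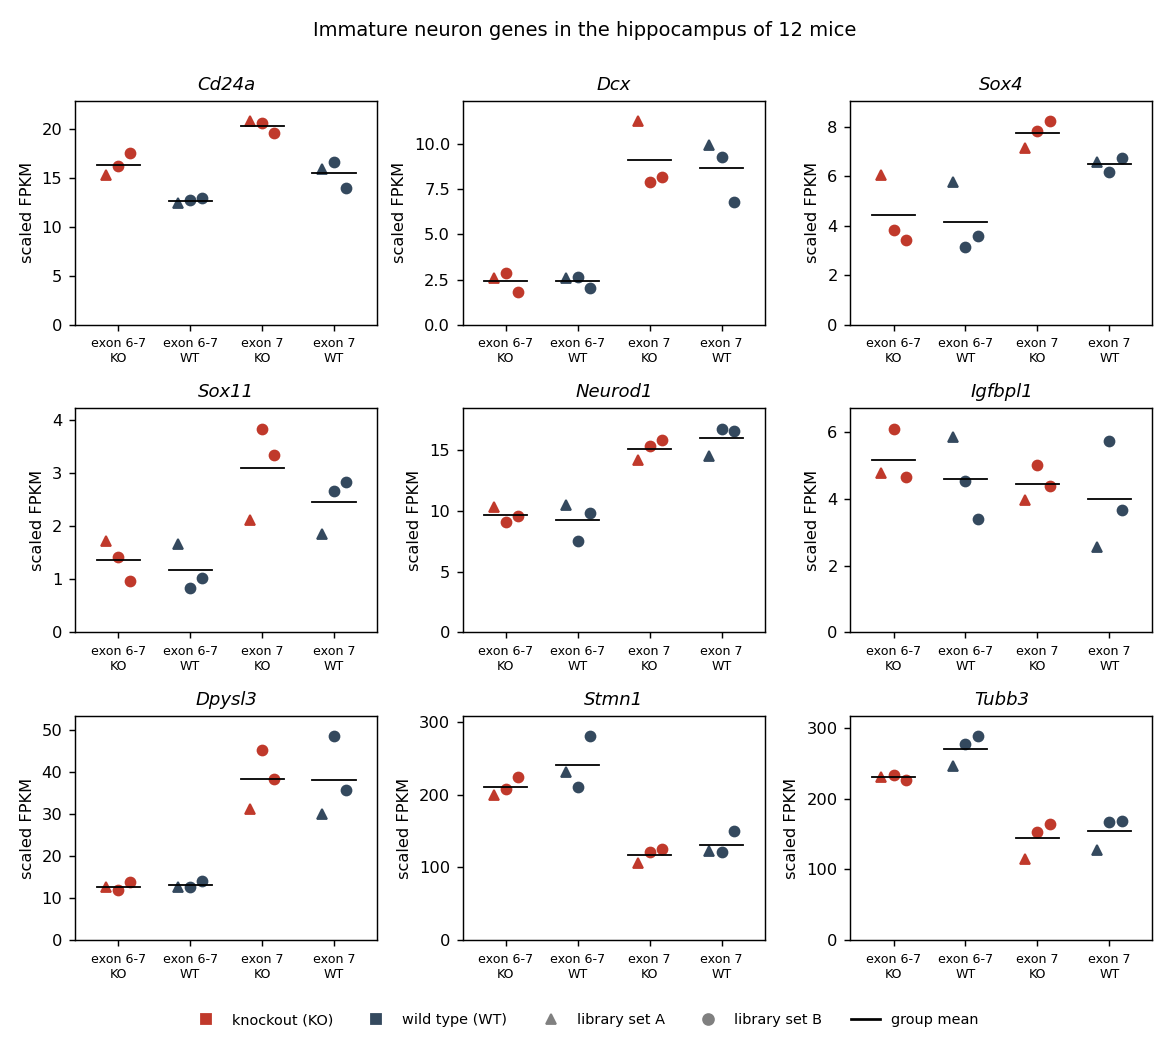
Scaled FPKM (vertical axes, linear, from 0) of each of the 9 genes in the 12 mice, by group, with knockouts in red, wild types in dark blue, library set A as triangles, set B as circles and a bar at the mean of 3 mice. Cd24a is the gene whose knockouts lie above the wild types in both lines, at 15.2 to 17.5 against 12.4 to 12.9 and at 19.6 to 20.8 against 13.9 to 16.6, while Dcx and Dpysl3 lie higher in the exon 7 line and overlap between genotypes.

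Cd24a encodes a small, heavily glycosylated protein that is held at the cell surface by a lipid anchor and is used to sort neuroblasts. The gene (ENSMUSG00000047139, mm10 chromosome 10 from 43578284 to 43584265 on the plus strand) had 15.2, 16.2 and 17.5 scaled FPKM in KO776, KO777 and KO864 of the exon 6-7 line, against 12.4, 12.7 and 12.9 in WT778, WT809 and WT865. Its level was 20.8, 20.6 and 19.6 in KO969, KO990 and KO994, against 15.8, 16.6 and 13.9 in WT628, WT993 and WT999. The groups did not overlap in either line, and the exon 6-7 knockouts reached the level of the exon 7 wild types. The means were 16.3 ± 1.14 and 12.7 ± 0.255 in knockouts and wild types of the exon 6-7 line, a ratio of 1.29, and 20.3 ± 0.648 and 15.4 ± 1.35 in those of the exon 7 line, a ratio of 1.31 (SD, n = 3 each).

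On the scale log2(scaled FPKM + 1), on which all log2 values here are given and which understates changes of low genes, Cd24a was higher by 0.34 in exon 6-7 knockouts and by 0.38 in exon 7 knockouts. These differences were 0.28 and 0.37 within library set A (1 mouse of each genotype per line) and 0.37 and 0.38 within set B. These are the values that chose the gene. For scale, the knockouts lay above the wild types with no overlap in 5.01% of the 14218 genes tested in the exon 6-7 line, in 3.27% in the exon 7 line and in 0.204% in both. In bulk tissue more cells that carry a transcript and more of it per cell cannot be told apart. Of the 50-base windows of the Cd24a transcripts 2.75% also occur in a transcript of another gene, Gm6212, and how such reads were counted is not stated in the labels or headers. Gm6212 itself was not listed in any library.

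Markers of ependymal cells, which also make Cd24a, lay higher in the knockouts as well. Of 12 ependymal markers, all listed in every library, 10 were tested and 0 passed limma (Benjamini-Hochberg adjusted p under 0.05 over all genes) in either line. At an unadjusted p under 0.05, 1 passed in each line, against 4.1% and 3.46% of all genes in the exon 6-7 and exon 7 lines. Of the 10, 9 lay above 0 in exon 6-7 mice (median log2 difference 0.33) and 10 of 10 in exon 7 mice (median 0.48), against 49.4% and 46.7% of all genes. Spag6l, a gene of the central apparatus of motile cilia, differed by 0.35 and 0.13, the tektin gene Tekt1 by 0.40 and 0.46 and the adenylate kinase gene Ak7 by 0.30 and 0.58 in the exon 6-7 and exon 7 lines, none passing.

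The summed level of the 12 ependymal markers did not follow Cd24a in every mouse. It was 86.1, 106 and 115 scaled FPKM in KO776, KO777 and KO864, against 73.3, 108 and 71.8 in WT778, WT809 and WT865, and the groups overlapped. In the exon 7 line it was 36.7, 70.9 and 71.3 in KO969, KO990 and KO994, against 36.1, 46.5 and 40.1 in WT628, WT993 and WT999. The sum of KO969 lay within the range of the wild types and its Cd24a was the highest of all 12 mice, while the sums of KO990 and KO994 lay above all 3 wild types. Foxj1, the master regulator of motile cilia, lay at 4.19 in KO969, against 4.70 in WT628, its partner in set A, and Cd24a was higher by 0.37 between those mice. Without WT865, a setting chosen after seeing the data, 9 of the 10 tested markers still lay above 0 in exon 6-7 mice (median 0.25). In each line Spag6l was the 1 tested marker whose knockouts lay above all wild types. Over all genes 0.204% were separated in this way in both lines. The part of ependymal cells in the Cd24a difference was not tested.

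Choroid plexus markers lay higher in the knockouts too, and 1 wild type was nearly without them. Ttr, transthyretin, was at 6615 to 8291 scaled FPKM in exon 6-7 knockouts and at 35.6, 3934 and 8494 in WT865, WT778 and WT809, and at 1605 to 2208 in exon 7 knockouts and 1359 to 1658 in their wild types. All 12 choroid plexus markers were listed in every library and lay above 0 in the exon 6-7 line (median 1.42), where their sum ran from 6805 to 8475 in knockouts and 44.5 to 8678 in wild types. In the exon 7 line 10 of 12 lay above 0 (median 0.24, sums of 1712 to 2351 in knockouts and 1465 to 1774 in wild types). Over all genes 49.4% and 46.7% lay above 0 in the exon 6-7 and exon 7 lines. None of the markers passed limma in either line, and 9 and 0 had an unadjusted p under 0.05, against 4.1% and 3.46% of all genes. Slc4a5, a bicarbonate transporter gene, differed by 1.38 and 0.40, the coagulation factor gene F5 by 1.20 and 0.19 and the secreted inhibitor gene Sostdc1 by 1.41 and 0.37. Without WT865, left out after seeing the data, all 12 still lay above 0 in the exon 6-7 line, but their median was 0.67. Of the 12, 7 had an unadjusted p under 0.05, against 725 of the 14218 genes tested. Ttr then differed by 0.36 in place of 2.80, Slc4a5 by 0.79, F5 by 0.72 and Sostdc1 by 0.67. Of the remaining wild types WT809, at a sum of 8678, lay above every exon 6-7 knockout. Cd24a was at 12.9 in WT865, against 12.4 and 12.7 in the other wild types of its line, and its knockout difference without WT865 was 0.35. The part of choroid plexus in the Cd24a difference was not tested.

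Blood and leukocyte genes, another place of Cd24a expression, were measured the same way. The sum of the 14 markers was 402 to 506 in exon 6-7 knockouts and 278 to 540 in wild types, and 257 to 391 in exon 7 knockouts and 102 to 294 in wild types. The B cell gene Ms4a1 was unlisted in at least 1 library of every group. Of the 5 markers tested, all lay above 0 in both lines (medians 0.15 and 0.73) and 0 passed limma, with 0 and 2 at an unadjusted p under 0.05. Over all genes 49.4% and 46.7% lay above 0, and 4.1% and 3.46% had an unadjusted p under 0.05. Hbb-bt and Hba-a2, globin chains, differed by 0.15 and 0.12 in the exon 6-7 line and by 0.79 and 0.82 in the exon 7 line, and Alas2, the first enzyme of haem synthesis in red cells, by 0.23 and 0.61. Without WT865 the median in the exon 6-7 line was 0.32, with 5 of 5 above 0. The part of blood in the Cd24a difference was not tested.

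**Figure D2:**
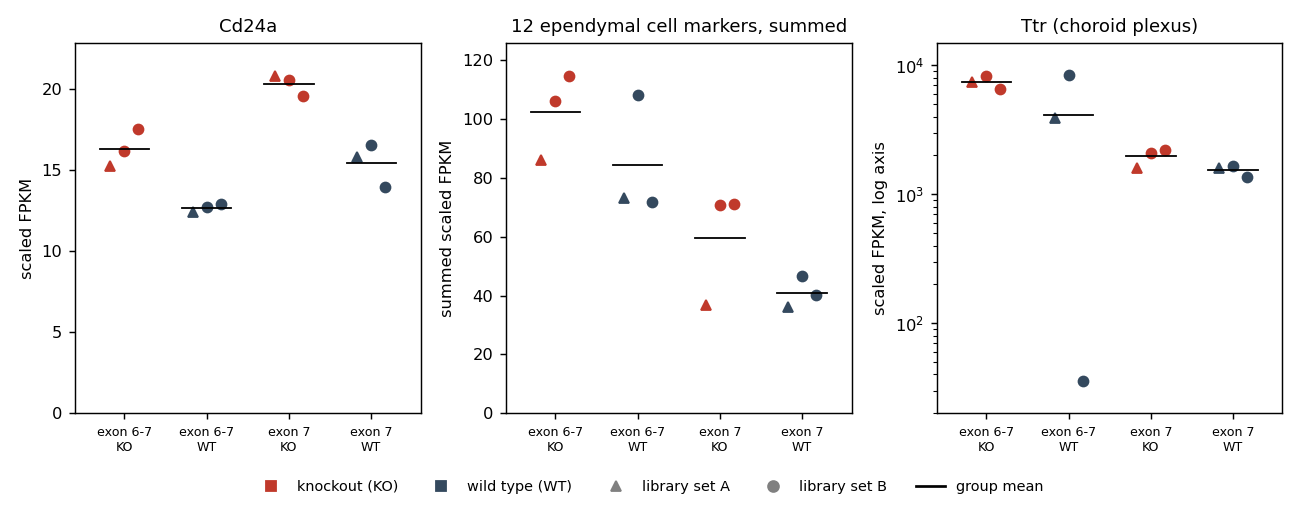
Cd24a (left, scaled FPKM), the sum of 12 ependymal cell markers (centre, scaled FPKM) and the choroid plexus gene Ttr (right, scaled FPKM on a log axis) in each mouse, with symbols and group means as in the plot of the 9 genes. Cd24a separates knockouts from wild types in both lines, the ependymal sum overlaps in the exon 6-7 line and is at 36.7 in KO969, and Ttr is at 35.6 in WT865.

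Profiles of log2 values centred on the mean of each line were compared with that of Cd24a by root mean square distance. Among tested genes with a symbol that is no clone name, the 5 named here lay closest over the 12 mice. They were Nme5, a gene of motile cilia (distance 0.086), St8sia2, which adds polysialic acid to the adhesion molecule NCAM in young neurons (0.11), the interferon-inducible GTPase gene Gbp2 (0.11), and the extracellular matrix genes Smoc2 (0.11) and Matn2 (0.11). The median distance over all genes was 0.25, and Cd24a itself lay at 0.19 from its line means. Nme5 lay at 19.5 to 24.8 scaled FPKM in exon 6-7 knockouts and 17.2 to 19.7 in wild types, and at 13.5 to 14.8 in exon 7 knockouts and 9.38 to 12.5 in wild types, with an overlap in the exon 6-7 line alone. St8sia2 was at 0.602 ± 0.0696 in exon 6-7 knockouts and 0.392 ± 0.0910 in wild types, and at 1.93 ± 0.190 in exon 7 knockouts and 1.57 ± 0.114 in wild types (SD, n = 3 each). These genes were taken for their likeness to a gene chosen for being higher in knockouts, so their differences are given here with no test. St8sia2, below 1 FPKM in the exon 6-7 mice, is also on a marker list and is counted among the tested genes of young neurons below.

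None of the other 8 genes of the set was detectably changed in the knockouts. In each line 0 of the 8 passed limma at an adjusted p under 0.05 and 0 of the 8 had an unadjusted p under 0.05. Over all genes tested 0.0141% passed in exon 6-7 mice and 0% in exon 7 mice, and 4.1% and 3.46% had an unadjusted p under 0.05. The median log2 difference of the 8 was 0.03 and 0.04, against −0.0020 and −0.0083 over all genes. The intervals below give the sizes that the data leave possible, and a p that misses the threshold does not show equal levels. In the difference of the knockout effects and in their mean 0 of the 8 passed as well, against 0.00703% and 0.0141% of all genes.

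The transcription factors of the set came first in the order of neuron formation. Sox4 (chromosome 13, 28948919 to 28953713, minus strand), a high-mobility-group factor that turns on the neuronal programme, was at 6.07, 3.84 and 3.43 scaled FPKM in KO776, KO777 and KO864, against 5.76, 3.13 and 3.58 in WT778, WT809 and WT865. The set A mouse of each genotype was the high one, and the groups overlapped. The exon 7 line had 7.15, 7.82 and 8.24 in KO969, KO990 and KO994, against 6.58, 6.18 and 6.73 in WT628, WT993 and WT999. All knockouts of that line lay above all wild types, as for 3.27% of genes. The log2 difference was 0.08 for exon 6-7 mice (95% interval −0.34 to 0.50, exact two-sided permutation p = 0.6) and 0.22 for exon 7 mice (−0.20 to 0.64, exact p = 0.1, the smallest that 3 against 3 can give). Neither passed limma over all genes (adjusted p = 1.0 in both).

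Sox11 (chromosome 12, 27334264 to 27342574, minus strand), the close relative of Sox4, was at 1.71, 1.42 and 0.974 in KO776, KO777 and KO864, against 1.67, 0.835 and 1.02 in WT778, WT809 and WT865. Exon 7 mice had 2.11, 3.84 and 3.35 in KO969, KO990 and KO994, against 1.85, 2.66 and 2.83 in WT628, WT993 and WT999. The set A mice were the high ones in the first line and the low ones in the second. Knockouts minus wild types gave 0.13 on the log2 scale (95% interval −0.32 to 0.57) for exon 6-7 mice and 0.24 (−0.21 to 0.68) for exon 7 mice, with overlapping groups in both. Over both lines the mean difference was 0.15 for Sox4 (−0.15 to 0.45) and 0.18 for Sox11 (−0.13 to 0.50), neither passing.

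Neurod1 (chromosome 2, 79452521 to 79456751, minus strand), a basic helix-loop-helix factor needed for granule neurons to survive and mature, was at 10.3, 9.04 and 9.54 in exon 6-7 knockouts KO776, KO777 and KO864, against 10.4, 7.52 and 9.77 in WT778, WT809 and WT865. Its exon 7 values were 14.2, 15.3 and 15.8 in KO969, KO990 and KO994, against 14.5, 16.7 and 16.5 in WT628, WT993 and WT999. Knockouts overlapped wild types in both lines. On the log2 scale it differed by 0.06 (95% interval −0.19 to 0.31) for exon 6-7 mice and by −0.07 (−0.32 to 0.18) for exon 7 mice, the narrowest intervals of the 8 genes. The difference between the knockout effects, 0.13 (−0.22 to 0.49), came nearest to the threshold among the members tested in that comparison and did not pass (limma adjusted p = 1.0). Of its 50-base transcript windows 5.71% are shared with the overlapping gene Cerkl, which was at 1.43 to 4.23 scaled FPKM over all mice.

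Igfbpl1 (chromosome 4, 45809468 to 45826923, minus strand), a secreted protein related to insulin-like growth factor binding proteins and a marker of neuroblasts, had the widest relative spread that any of the 9 genes showed within a group. It was at 4.75, 6.09 and 4.64 in KO776, KO777 and KO864, against 5.86, 4.52 and 3.40 in WT778, WT809 and WT865. For exon 7 mice it lay at 3.95, 5.01 and 4.37 in KO969, KO990 and KO994, against 2.55, 5.73 and 3.67 in WT628, WT993 and WT999, where the SD of the wild types was 40.5% of their mean. Its log2 difference was 0.16 (95% interval −0.32 to 0.63) and 0.17 (−0.30 to 0.65) in the exon 6-7 and exon 7 lines. Within set A it was −0.25 and 0.48 and within set B 0.36 and 0.02, so the sets gave opposite signs in the exon 6-7 line.

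Doublecortin, the product of Dcx, binds microtubules in migrating neuroblasts and is the usual stain for them. Dcx (chromosome X, 143855842 to 143933311, minus strand) was at 2.57, 2.88 and 1.79 in KO776, KO777 and KO864, against 2.59, 2.65 and 2.01 in WT778, WT809 and WT865. It was at 11.3, 7.88 and 8.17 in KO969, KO990 and KO994, against 9.95, 9.31 and 6.82 in WT628, WT993 and WT999. Knockouts and wild types were intermixed in each line. Dcx differed on the log2 scale by −0.0089 (95% interval −0.39 to 0.37, exact permutation p = 0.9) for exon 6-7 mice and by 0.06 (−0.32 to 0.44, exact permutation p = 0.9) for exon 7 mice.

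Dpysl3 (chromosome 18, 43320984 to 43438286, minus strand) encodes a collapsin response mediator protein that acts on the cytoskeleton of growth cones. It was at 12.5, 11.9 and 13.7 in KO776, KO777 and KO864, against 12.6, 12.6 and 13.9 in WT778, WT809 and WT865, a log2 difference of −0.03 (95% interval −0.39 to 0.32). It was at 31.0, 45.3 and 38.2 in KO969, KO990 and KO994, against 30.0, 48.4 and 35.5 in WT628, WT993 and WT999, a difference of 0.02 (−0.34 to 0.38). Within the exon 7 line the set A mouse was the lowest of each genotype.

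Stmn1 and Tubb3, the abundant pair, lay below the wild types in both knockouts without passing the test. Stmn1 (chromosome 4, 134468320 to 134473843, plus strand), the gene of stathmin, which takes microtubules apart, was at 199, 207 and 224 in KO776, KO777 and KO864, against 232, 211 and 281 in WT778, WT809 and WT865. It was at 107, 121 and 125 in KO969, KO990 and KO994, against 123, 121 and 150 in WT628, WT993 and WT999. The groups overlapped in both lines, and the highest value of each line was a wild type. Stmn1 differed on the log2 scale by −0.19 (95% interval −0.45 to 0.07) and −0.15 (−0.41 to 0.11) in the exon 6-7 and exon 7 lines, and −0.17 (−0.35 to 0.01) as a mean over both, with an unadjusted limma p of 0.0668. Of its transcript windows 18.9% occur in other genes, most of them in Gm11223, which was at 33.9 to 88.9 in exon 6-7 knockouts and 50.3 to 95.9 in wild types, and at 20.2 to 21.4 in exon 7 knockouts and 21.4 to 26.1 in wild types, so that reads of Stmn1 and this copy may be mixed.

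Tubb3 (chromosome 8, 123411424 to 123422015, plus strand), the neuronal beta-tubulin, was at 230, 233 and 226 in KO776, KO777 and KO864, against 246, 277 and 288 in WT778, WT809 and WT865. All 3 knockouts lay below all 3 wild types, which 6.31% of all genes did in this line. It was at 115, 153 and 164 in KO969, KO990 and KO994, against 128, 167 and 169 in WT628, WT993 and WT999, where the groups overlapped. The log2 difference was −0.23 (95% interval −0.53 to 0.07, exact permutation p = 0.1, the smallest possible) for exon 6-7 mice and −0.10 (−0.41 to 0.20, exact permutation p = 0.5) for exon 7 mice. The mean over both lines was −0.17 (−0.38 to 0.05). Its adjusted limma p in the exon 6-7 line ran from 0.237 to 1.0 over 23 alternative settings.

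**Figure D3:**
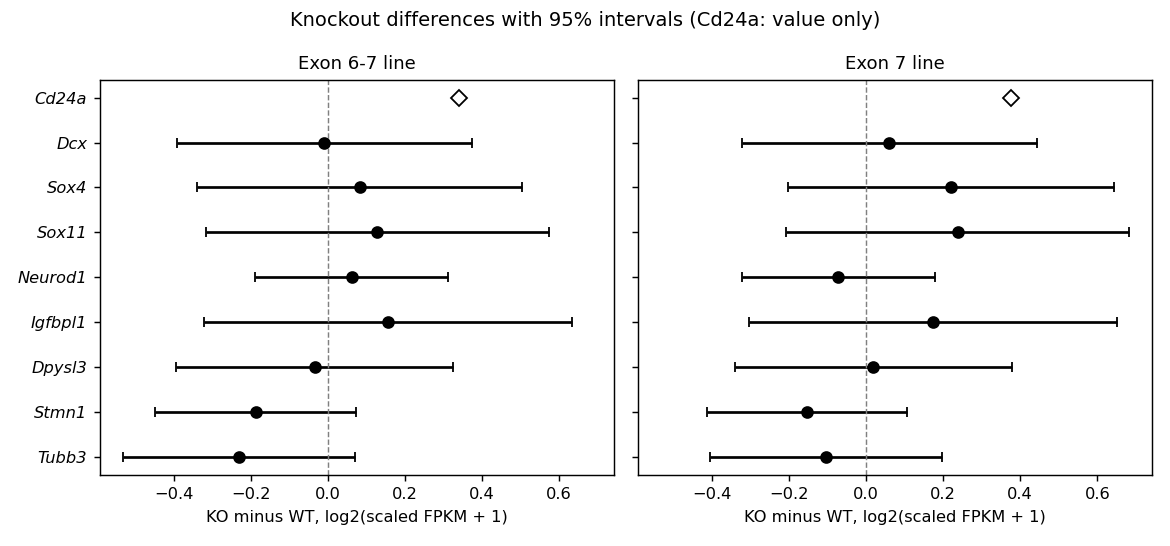
Knockout minus wild type for each gene in the exon 6-7 line (left) and the exon 7 line (right), on the scale log2(scaled FPKM + 1), with points for the limma estimate (3 mice against 3) and bars for its 95% interval. Each interval of the 8 tested genes includes 0, and Cd24a, drawn as an open diamond with no interval because it was chosen on these values, stands at 0.34 and 0.38.

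None of the tested genes of the stages before and after the neuroblast passed the test in either line. Of 16 neural stem cell genes 15 were tested and 0 passed limma in either line (medians −0.03 and 0.10). In both lines 0 had an unadjusted p under 0.05, against 4.1% and 3.46% of all genes. The intermediate filament genes Vim and Gfap differed by 0.24 and 0.01 in the exon 6-7 line and by 0.38 and 0.29 in the exon 7 line, and the lysophosphatidic acid receptor gene Lpar1 by −0.18 and −0.14. Of 13 genes of intermediate progenitors and dividing cells 8 had a mean of at least 1 FPKM and were tested. Eomes, Neurog2, Mki67, Ccnb1 and Cenpf lay below that level and were not tested, so the counts do not cover them. All 8 tested genes lay above 0 in the exon 6-7 line (median 0.05) and 7 in the exon 7 line (median 0.09). Over all genes the shares above 0 were 49.4% and 46.7%. None of the 8 passed limma, and 1 and 0 had an unadjusted p under 0.05, against 4.1% and 3.46% of all genes. The 1 was Ccnd2, cyclin D2, which was at 11.5 ± 0.676 scaled FPKM in exon 6-7 knockouts and 9.44 ± 0.478 in wild types (SD, n = 3 each), a difference of 0.26, and which differed by 0.02 in the exon 7 line. Top2a and Cdk1, genes of dividing cells, differed by 0.04 and 0.01 in the exon 6-7 line and by 0.28 and 0.22 in the exon 7 line.

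Among other genes of young neurons none passed the test. Of 25 such genes 24 were tested, 0 passed limma in either line, 0 had an unadjusted p under 0.05, and 9 and 17 lay above 0 (medians −0.02 and 0.04). For this list and those below, the shares over all genes were 49.4% and 46.7% above 0, and 4.1% and 3.46% at an unadjusted p under 0.05. St8sia2 differed by 0.20 and 0.18, the transcription factor gene Neurod2 by 0.10 and 0.13 and the RNA-binding protein gene Elavl4 by 0.0059 and −0.19 in the exon 6-7 and exon 7 lines. Of 15 markers of mature neurons and granule cells 0 passed limma (0 and 1 at an unadjusted p under 0.05), with medians of 0.01 and 0.0058. C1ql2, a synaptic organiser of granule cells, differed by −0.14 and 0.49, the vesicle calcium sensor gene Syt1 by 0.09 and 0.05 and the neurofilament gene Nefm by −0.17 and −0.09. Of 10 genes of the neuroblasts that supply the olfactory bulb, a neighbouring stream of young neurons, 9 were tested and 0 passed limma (1 and 1 at an unadjusted p under 0.05), with medians of −0.04 and 0.06 and with 2 of the 9 above 0 in exon 6-7 mice and 5 in exon 7 mice. Dlx6 and Dlx1, homeobox genes of inhibitory neurons, differed by −0.16 and −0.04 in the exon 6-7 line and by −0.43 and −0.16 in the exon 7 line, and Cdca7 by −0.38 and 0.11. Their relatives Dlx2 and Dlx5 differed by 0.13 each in exon 6-7 mice and by 0.11 and 0.08 in exon 7 mice. Of the 10 hippocampal neuron markers 0 passed limma in either line (0 and 2 at an unadjusted p under 0.05), with medians of −0.11 and −0.0077, and 2 and 5 of the 10 lay above 0. The pyramidal cell genes Fibcd1 and Spink8 differed by −0.13 and −0.19 in the exon 6-7 line and by −0.32 and −0.17 in the exon 7 line. C1ql2, also in this list, and Slc17a7, the vesicular glutamate transporter gene, lay above 0 in exon 7 knockouts, by 0.49 and 0.13, and the Slc17a7 difference in exon 6-7 mice was 0.0041.

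The wild types of the lines differed in 7 of the 8 genes tested. Dcx, Dpysl3, Neurod1, Sox11 and Sox4 were higher in exon 7 wild types, and Stmn1 and Tubb3 were lower. These counts must be read against a background in which 67.1% of all 14218 genes passed, 33.9% higher and 33.2% lower, so most genes passed in this comparison. The genetic line and the handling of its libraries cannot be told apart here.

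Dcx and Dpysl3 had the largest differences of the set on the scale used. Dcx averaged 8.69 ± 1.65 scaled FPKM in exon 7 wild types and 2.42 ± 0.352 in exon 6-7 wild types (SD, n = 3 each), a ratio of 3.60 and a log2 difference of 1.49 (SE 0.176, limma adjusted p = 1.19e-05). Dpysl3 averaged 38.0 ± 9.46 and 13.0 ± 0.763 in the same groups, a difference of 1.45 (SE 0.164, adjusted p = 9.08e-06 by limma). For these genes, and for each of the other 5 that passed, the groups did not overlap, as for 35.6% of all genes in the higher and 34.6% in the lower direction.

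The 3 transcription factors were higher in exon 7 wild types by 0.57 to 0.73. Neurod1 averaged 15.9 ± 1.23 in exon 7 wild types and 9.24 ± 1.52 in exon 6-7 wild types (SD, n = 3 each; log2 difference 0.73, SE 0.115, limma adjusted p = 0.000127). Sox11 averaged 2.45 ± 0.523 and 1.18 ± 0.437 (0.67, SE 0.204, limma adjusted p = 0.0116), and Sox4 6.50 ± 0.284 and 4.16 ± 1.41 (0.57, SE 0.194, limma adjusted p = 0.0200). Sox4 no longer passed with FPKM as deposited (adjusted p = 0.0537), with quantile normalization (0.0903), without WT809 (0.0897), without WT865 (0.0664) or without WT999 (0.0529), in a range of 2.55e-05 to 0.0903 over 22 alternatives. Sox11 no longer passed without WT809 (0.0507, range 7.39e-05 to 0.0507 over 21 alternatives).

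Cd24a, whose wild-type values entered its choice, was at 15.4 ± 1.35 in exon 7 wild types and 12.7 ± 0.255 in exon 6-7 wild types (SD, n = 3 each), a log2 difference of 0.26 that is given with no test. Under other scalings it was 0.12 with FPKM as deposited, 0.17 with quantile normalization and 0.42 with TPM. Igfbpl1 did not differ detectably, at 3.98 ± 1.61 and 4.59 ± 1.23 in the exon 7 and exon 6-7 wild types (−0.19, 95% interval −0.67 to 0.28).

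Stmn1 averaged 131 ± 16.0 in exon 7 wild types and 241 ± 35.6 in exon 6-7 wild types (SD, n = 3 each), a ratio of 0.544 and a log2 difference of −0.87 (SE 0.119, limma adjusted p = 4.23e-05). Tubb3 averaged 155 ± 23.2 and 271 ± 21.8 in these groups (ratio 0.571, log2 difference −0.81, SE 0.138, limma adjusted p = 0.000237). Both kept their direction under each scaling tried, but quantile normalization gave −0.37 for Stmn1 and −0.28 for Tubb3, and Tubb3 then no longer passed (adjusted p = 0.0789, range 2.16e-06 to 0.0789 over 22 alternatives). With FPKM as deposited the median of all genes in this comparison was −0.14, and with rescaling to TPM it was 0.13, against −0.0053 with the scaling used, so each gene is to be read relative to that shift. Gm11223, which shares transcript windows with Stmn1, averaged 23.7 in exon 7 wild types and 78.8 in exon 6-7 wild types. Reads of Stmn1 and this copy may be mixed in this comparison too.

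**Figure D4:**
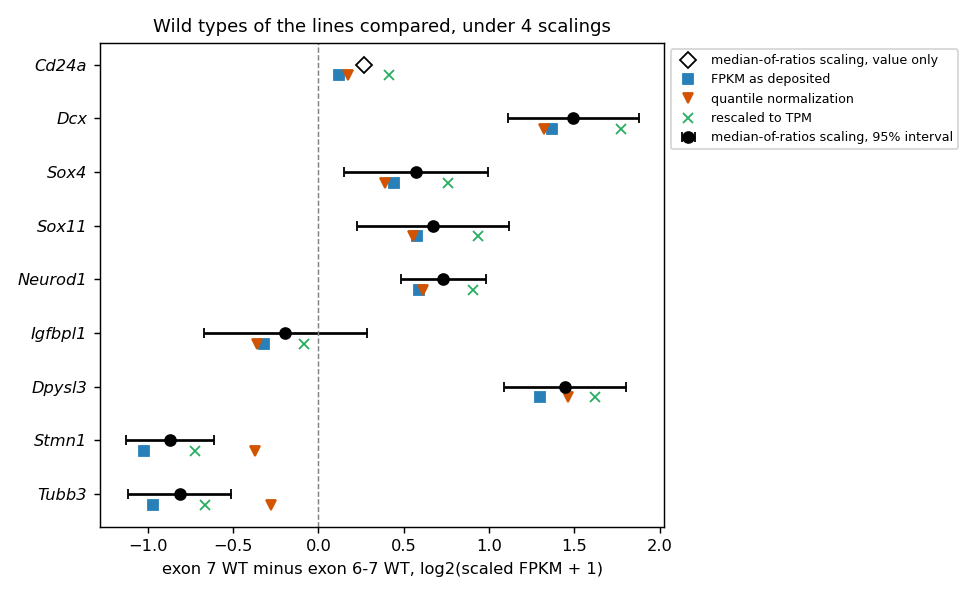
Exon 7 wild types minus exon 6-7 wild types (3 mice each) for the 9 genes on the log2 scale, with the limma estimate and its 95% interval in black for the 8 genes tested, an open diamond with no interval for Cd24a, and the same difference under 3 other scalings as coloured symbols. Dcx and Dpysl3 lie at 1.49 and 1.45, Stmn1 and Tubb3 below 0, and the smaller difference of Cd24a is 0.12 with FPKM as deposited and 0.42 with TPM.

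The knockouts of the lines stood apart, with no overlap, in 8 of the 9 genes, 6 of them higher and 2 lower in exon 7 knockouts, in a comparison in which 34.5% of all genes were separated in the higher and 33.3% in the lower direction. Dcx was at 7.88 to 11.3 in exon 7 knockouts and 1.79 to 2.88 in exon 6-7 knockouts, and Dpysl3 at 31.0 to 45.3 and 11.9 to 13.7. The transcription factors followed, with Neurod1 at 14.2 to 15.8 in exon 7 knockouts and 9.04 to 10.3 in exon 6-7 knockouts, Sox4 at 7.15 to 8.24 and 3.43 to 6.07, and Sox11 at 2.11 to 3.84 and 0.974 to 1.71. Cd24a, which is counted among the 6 higher genes although its knockout values entered its choice, was at 19.6 to 20.8 and 15.2 to 17.5. Stmn1, at 107 to 125 in exon 7 knockouts and 199 to 224 in exon 6-7 knockouts, and Tubb3, at 115 to 164 and 226 to 233, were the lower ones. Igfbpl1 overlapped, at 3.95 to 5.01 and 4.64 to 6.09. Most genes were separated in this comparison, so nothing particular to the set is read from these counts. This difference was not fitted as a comparison of its own.

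Some of the genes also differed between the library sets, and none of the 8 passed in both lines. In a fit with set as a term within each line, Sox4 was higher in set A than in set B of the exon 6-7 line by 0.62 (SE 0.0903, limma adjusted p = 0.00615), the 1 of the 8 genes tested that passed there, against 6.82% of all genes. In the exon 7 line 3 of the 8 passed, against 31.5% of all genes: Tubb3 (−0.42, SE 0.0568, limma adjusted p = 0.000506), Sox11 (−0.48, SE 0.125, limma adjusted p = 0.0160) and Dpysl3 (−0.43, SE 0.118, limma adjusted p = 0.0188) were lower in set A. Sox4 differed by −0.06 in the exon 7 line and Sox11 by 0.39 in the exon 6-7 line, neither passing. A reversal between the lines was not tested. Given the shares over all genes, nothing particular to the set is read from these counts. Cd24a differed by −0.09 and 0.05 between sets in the exon 6-7 and exon 7 lines, given with no test. Each genotype of a line had 1 mouse in set A and 2 in set B.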

How the data were processed

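TRIZOL extracts of the hippocampi gave poly(A) RNA for Illumina TruSeq libraries, per the labels' protocols. CASAVA, GSNAP, Cufflinks and mm10 appear in the submitters' processing notes, with no role or order. The authors deposited 1 table of FPKM values per mouse with Ensembl release 74 identifiers, per the file headers, and only values above 0 are listed. Strand, read counting and multiple mapping are not stated there.

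An unlisted gene was given 0. Each library was divided by a median-of-ratios factor, taken against the geometric mean of the 12511 genes that reached 1 FPKM in every mouse. Tested were the 14218 genes whose mean reached 1 FPKM, all 9 members among them, after 110 small, ribosomal and mitochondrial transfer RNA genes were left out by GENCODE M21 type. At most 0.00546% of values were equal between 2 libraries. The fit was limma 3.58.1 (trend) in R 4.3.3 on log2(scaled FPKM + 1), with 4 group means and 1 spread (8 residual degrees of freedom), two-sided, Benjamini-Hochberg adjusted over all genes tested, threshold 0.05. It was tested on simulated data. Exact permutation tests (20 relabellings, 3 against 3, smallest p 0.1) and promoter searches used Python 3.11.15 and scipy 1.17.1, and plots matplotlib 3.10.9.

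Members and marker lists were chosen with earlier results of these data known. Named were all 9 members, per list the genes passing in a knockout comparison or else the 3 with the smallest p of the mean effect, the 5 nearest to Cd24a, Shank2, Ttr and Foxj1. Genes with no symbol or with a clone name were left out of the search for those 5. Cd24a was to be tested between wild types but is only described, since its wild-type values entered its choice. Ms4a1, Prox1, Wfs1, Zbtb20, Dlx2, Dlx5 and Slc17a7 were named beyond this rule with their values in view. Eomes, Neurog2, Mki67, Ccnb1 and Cenpf were named because the filter removed them.

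The results were recomputed with a pseudocount of 0.1 or 5, without the filter or with one at 5 FPKM, with deposited FPKM unscaled, after quantile normalization or rescaling to TPM, with array weights, robust empirical Bayes or a library set term, by line, and without each mouse. Marker lists were recomputed without WT865, chosen after seeing the data.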

Additional observations from a re-analysis of the deposited data

How the results depend on the processing

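No paired analysis was possible because each mouse number occurs once. In no alternative did a member other than Cd24a pass in either knockout comparison, in their difference or in their mean. The Cd24a knockout differences were 0.27 to 0.41 and 0.31 to 0.43 over all alternatives in the exon 6-7 and exon 7 lines. Of the 8 members tested between the wild types 7 passed, 5 with quantile normalization, 6 with FPKM as deposited and 5 to 7 with 1 mouse left out. Over all genes, the exon 6-7 comparison called 2, 5 with no filter and 1 to 6 with 1 mouse left out. The exon 7 comparison called 0, 1 with a pseudocount of 0.1 or no filter and 0 to 2 with 1 mouse left out. The difference of effects called 1, 2 with a pseudocount of 0.1 or array weights, 3 with library set as a term and 1 to 3 with 1 mouse left out, and the mean effect called 2, 4 with no filter and 1 to 5 with 1 mouse left out. Signs turned only for differences that did not pass. Dcx in the exon 6-7 line was 0.035 with TPM and 0.033 with array weights, Dpysl3 there 0.019 with TPM, and Igfbpl1 between wild types 0.0054 with set as a term. With 1 mouse left out, the ranges in the exon 6-7 line were −0.11 to 0.13 for Dcx, −0.12 to 0.29 for Sox4, −0.065 to 0.15 for Neurod1, −0.0054 to 0.31 for Igfbpl1 and −0.085 to 0.010 for Dpysl3. In the exon 7 line they were −0.089 to 0.16 for Dcx, −0.046 to 0.42 for Igfbpl1, −0.13 to 0.20 for Dpysl3 and −0.24 to 0.047 for Tubb3, and between wild types −0.44 to 0.025 for Igfbpl1. The filter of 5 FPKM removed Sox11 and Igfbpl1, and of the 6 tested genes left 6 passed between the wild types. The causes were not tested. FPKM keep no depth, so no counting error is attached, and Sox11, near 1 FPKM in the exon 6-7 line, is the least certain level.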

Other observations

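The related factors Sox4 and Sox11 were also set against each other within each mouse. Sox4 over Sox11 was 3.26 ± 0.474 in exon 6-7 knockouts and 3.56 ± 0.160 in their wild types, and 2.63 ± 0.687 in exon 7 knockouts and 2.75 ± 0.695 in their wild types (SD, n = 3 each). Stmn1 over Tubb3 was 0.915 ± 0.0674 in exon 6-7 knockouts and 0.892 ± 0.114 in their wild types, and 0.826 ± 0.0871 in exon 7 knockouts and 0.858 ± 0.124 in their wild types. The ranges of both ratios overlapped between knockouts and wild types in each line.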
